A study of Rattus norvegicus with 6 samples.

Results

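The regions described here are the strongest REST-bound sites of quiescent rat hippocampal neural stem cells that were also bound in the proliferating cells. They were selected on measured values, as the iQNP sites with a mean of over 30 normalized tags for which a TAP site had its centre within 50 bp, paired one to one with the closest pair first. Of 1775 iQNP sites, 390 had over 30 tags, and 332 of these had a TAP site and are called strong shared sites below. A further 424 iQNP sites with up to 30 tags also had a TAP site, so that the strong shared sites are 332 of 756 shared sites.

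The cells are HCN cells, a line of neural stem cells cloned from the hippocampus of adult Fisher 344 rats, so that every library comes from 1 line. The proliferating condition (TAP) had 20 ng/ml FGF2, and for quiescence (iQNP) 50 ng/ml BMP4 was given together with the same 20 ng/ml FGF2. Per condition, 1 ChIP library used a commercial REST antibody, 1 used REST14 and REST17, both homemade, as a mixture, and 1 was input DNA. A tag is a read aligned within the peak window, and normalized tags are scaled to a library of 10000000 tags. Dividing total by normalized tags gave library depths, in units of 1000000, of 28.2 (commercial) and 29.8 (homemade) for iQNP, and of 25.7 and 25.2 for TAP. These are medians over sites, and in the commercial iQNP library the quotient ran from 28.1 to 29.1 among the strong shared sites, with 2 of them over 2% from the median. No antibody was repeated within a condition, so the spread between a condition's 2 libraries includes how the antibodies differ. Nothing in the labels states whether they came from separate cultures, and with 2 libraries against 2 an exact permutation test cannot give a p-value below 0.333.

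REST is a zinc finger repressor that binds the repressor element 1 (RE1), a DNA motif made of a left and a right part with a short spacer. It recruits corepressor complexes that carry histone deacetylase and demethylase activities, and it is known for keeping genes of mature neurons silent in stem cells and in cells outside the nervous system. Its targets include ion channels, receptors, synaptic vesicle proteins, neuropeptide precursors and microRNAs.

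The RE1 core was looked for where a strong shared site lay at a promoter. The search used CAGCACC, any 2 bases, and GGACAG on both strands of the RefSeq promoters (build GRCr8, 250 bp before to 50 bp after the start), since the sites themselves are given on build rn4 and were not read from a genome here. Of the 25 strong shared sites between 250 bp before and 50 bp after a transcription start site (TSS), 20 had a gene with a RefSeq promoter. The core was present without a mismatch in 4 of these 20 promoters and with at most 1 mismatch among the 13 letters compared in 7, or 35%. By the same search, 0.215% of all 27457 promoters held it with at most 1 mismatch, as did 3.57% of the 140 promoters next to the other iQNP sites. Those other sites include the ones without a TAP site, and the other shared sites were not counted apart. The 7 sequences are shown because they place the motif close to the peak centre in most of these promoters. Each is written 5′ to 3′ on the strand that reads the core from left to right, with the 15 bases of the core and its spacer in capitals.
Vgf: ccggcttCAGCACGCTGGACAGcgcccgc
Hrh3: gcgcgggCAGCACCACGGACAGcgccgcg
Rph3a: tggcagtCAGTACCACGGACAGcaccagg
Vwc2l: aattcctCAGCACCACGGACAGcgccaac
Cartpt: ggaagtcCAGCACCATGGAGAGctcccgc
Fbll1: caatgggCAGCACCACGGACAGaaatgga
Fam163b: ccagcgtCAGCACCAGGGACAGttcctcg

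The single mismatches, counted from 1 at the first base in capitals with the core's base first, were C7G in Vgf, C4T in Rph3a and C13G in Cartpt. The centre of the core and the centre of the peak, each measured from the TSS of its own annotation, lay 8 bp apart in Vgf, a neuropeptide precursor, and 4 bp apart in Hrh3, a histamine receptor. They were 10 bp apart in Rph3a, a synaptic vesicle protein, 3 bp in the neuropeptide gene Cartpt and 1 bp in Fam163b. In Fbll1, a relative of the nucleolar protein fibrillarin, and in Vwc2l the distances were 41 and 64 bp, and the start sites of the 2 builds were not compared. A match is a description of these letters, and promoters without one may hold other forms of the element.

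At the strong shared sites REST tags ranged from 30.1 to 542.3 in iQNP, with a median of 39.8, and from 7.46 to 252.7 in TAP, with a median of 20. Only 26 sites exceeded 100 tags in iQNP, 72 had over 50 to 100, and 168 had over 30 to 40. Just inside the limit were sites near Olfm1, Mir129-2 and Mfap3, with 30.05, 30.05 and 30.1 tags in iQNP and 14.75, 15.9 and 9.24 in TAP. The shared sites just outside lay near Tnni3k, Sel1l and Kcnh7, each with under 30.05 tags in iQNP and 10.4, 11.4 and 15.55 in TAP. The limit therefore falls within a continuous range of values and separates no class of sites.

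The site with the most tags lay 492720 bp from the TSS of Tll1, a secreted metalloprotease gene, at chr16:27940358-27940413. Its normalized tags were 629.7 (commercial) and 454.9 (homemade) in the iQNP libraries, against 267.6 and 237.8 in the TAP libraries. This site also had 101.0 and 102.8 scaled input tags in iQNP and 89.6 and 85.1 in TAP, the highest of any member. Together with 2 sites annotated to Cpe, which encodes a neuropeptide processing enzyme, it stands apart in the input: these 3 sites on chromosome 16 had between 25.7 and 102.8 scaled input tags in the 4 libraries, and no other member had more than 11. Their fold over input was accordingly low, between 5.38 and 17.7, although they ranked 1, 11 and 19 by iQNP tags. The part of the input in their tag values was not tested.

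Next came the site in an intron of Camta1, a calmodulin-binding transcription activator (chr5:168809198-168809260), which had 404.7 and 218.2 tags in iQNP with the commercial and the homemade antibodies, and 229.8 and 157.2 in TAP. The intronic site of Npas4, a transcription factor induced by neuronal activity (chr1:207601827-207601893, 639 bp after the TSS), had 326.0 and 201.8 tags in iQNP against 217.0 and 146.5 in TAP. At both sites the homemade library of iQNP was below the commercial library of TAP, so that the conditions overlapped when the antibodies were mixed and were separate within each antibody. Near Igsf21, an immunoglobulin superfamily gene (chr5:159159588-159159639), the tags were 327.8 and 185.0 in iQNP and 139.6 and 100.8 in TAP, with no overlap, as at 92.7% of all shared sites. Next to Cacng2, which encodes the AMPA receptor auxiliary subunit stargazin (chr7:116038861-116038926), the values were 316.1 and 191.0 in iQNP and 191.0 and 141.0 in TAP. The remaining 5 of the first 10 lay in or near Phf21b, a PHD finger gene, the potassium channel gene Kcnk9, the unnamed gene RGD1559613, Mir3085 and Rbfox3, whose product is the neuronal marker NeuN, with means from 173 to 247 tags in iQNP and from 91.6 to 161.2 in TAP. Of the first 10 sites in iQNP, 9 were also among the first 10 of these sites in TAP.

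**Figure D1:**
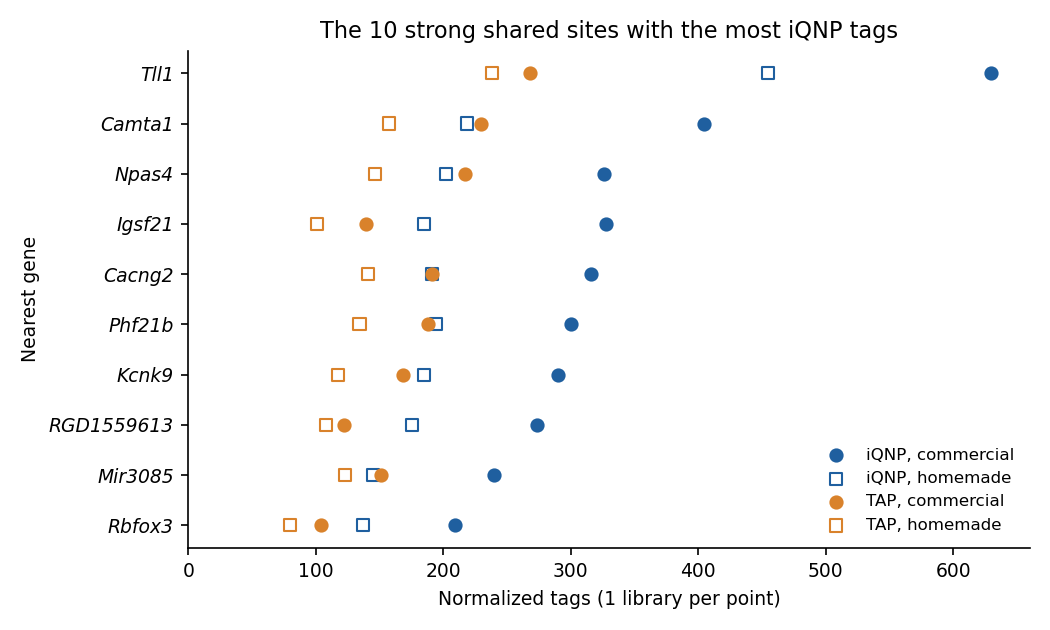
Normalized tags in each of the 4 ChIP libraries (x axis, 1 point per library) at the 10 strong shared sites with the most tags in iQNP, named by nearest gene. Within each antibody the iQNP point lies to the right of the TAP point at all 10 sites, from 629.7 against 267.6 at Tll1 to 137.0 against 79.4 with the homemade antibodies at Rbfox3.

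The fold over input was above that of the other shared sites in both conditions, as the choice on tags implies, and there the lower antibody had medians of 20.5 in iQNP and 10.5 in TAP. At the strong shared sites the medians of the same measure were 32.6 and 18.1. It was at least 10 at 329 of 332 sites (99.1%) in iQNP and at 262 (78.9%) in TAP. The lowest values were 7.38 in iQNP and 4.24 in TAP. The least extreme p-value against input was 6.37e-42 among the iQNP libraries and 1.08e-06 among the TAP libraries, as the peak caller gave it. At a typical site the input was small, with a median of 3.8 scaled tags in iQNP and 2.7 in TAP with the commercial antibody, so a single fold over input rests on few input tags. The lowest scaled input listed was 0.5 or 0.4 in each library, below the next value of 0.9 or 1, and 40 strong shared sites were at it in at least 1 library, so their fold there is set by that floor. One of them was the site near Igsf21 with the homemade antibodies, and with the commercial antibody it had 979.5-fold over input in iQNP on 0.9 scaled input tags.

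Most of the strong shared sites lay between genes, as did most of all iQNP sites (54.8% intergenic) and of the other shared sites (57.3%). Introns held 26.0% of all iQNP sites and 33.7% of the other shared sites. The annotation places 184 of 332 (55.4%) in intergenic regions, 89 (26.8%) in introns, 39 (11.7%) at promoter-TSS, 9 in exons, 6 at transcription termination sites, 4 in 5′ UTRs and 1 in a non-coding transcript. The promoter-TSS share was 5.66% among the 424 other shared sites and 14.8% among all iQNP sites. Within 1 kb of a TSS lay 60 strong shared sites (18.1%; 95% Wilson interval, 14.3 to 22.6, for counting error only), against 12.5% of the other shared sites and 19.4% of all iQNP sites. Of the 58 sites with over 30 tags and no TAP site, 20 (34.5%) lay within 1 kb. These shares are descriptions, since sites are not replicates and the limit on tags chose the members. The median distance to the nearest TSS was 30185 bp, and the farthest member lay 946479 bp away, near Slc15a4. The same nearest gene was given to the paired TAP site for all 332 sites. The peak centres in iQNP and TAP lay a median of 11 bp apart, and 265 pairs (79.8%) were within 20 bp.

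The 10 sites with the most tags within 1 kb of a TSS were, after Npas4, those of Iqsec3, Xkr7, Glra1, Scrt1, Chgb, Snap25, Vgf, L1cam and Hrh3. At Glra1, a glycine receptor subunit (15 bp before the TSS), the commercial and homemade libraries had 135.2 and 77.9 tags in iQNP, against 68.4 and 44.1 in TAP. At Snap25, a SNARE protein of the presynaptic terminal, they had 122.7 and 69.2 in iQNP, against 59.5 and 44.1 in TAP. At Chgb, a granin of dense-core vesicles, they had 120.3 and 78.9 in iQNP, against 62.6 and 53.6 in TAP. In these 3 genes even the lower iQNP library exceeded both TAP libraries, as it did at 92.7% of all shared sites. At Scrt1, a neuronal zinc finger repressor, the libraries overlapped, with 131.3 and 73.5 tags in iQNP and 88.7 and 69.9 in TAP. L1cam, a neural adhesion molecule on chromosome X, had 84.4 and 60.1 in iQNP and 38.5 and 31.8 in TAP.

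Neuronal gene families made up part of the nearest genes. Of 6 lists of gene families matched by symbol, at least 1 held the nearest gene of 97 strong shared sites (29.2%), against 23.3% of the other shared sites and 19.3% of all iQNP sites. The lists were chosen with earlier results of these data known, so these shares are descriptions and no enrichment was tested. Ion channel genes were the nearest genes of 24 sites, 2 of them within 1 kb and 8 within 10 kb of the TSS. They were 19 genes, among them Cacng2, Kcnk9, Cacna1a, Hcn2 and Hcn4, with a median of 39.6 tags in iQNP and 18.1 in TAP. Synaptic vesicle and secretion genes were the nearest genes of 24 sites, with medians of 55.0 and 28.7 tags. Within 1 kb of the TSS lay 13 of them, and within 10 kb the same 13. Apart from Chgb, Snap25 and Vgf they included the vesicle genes Rph3a and Syt7 and the vesicular GABA transporter Slc32a1, and also Vamp3, which is used in many cell types. Neurotransmitter receptor genes were the nearest genes of 13 sites of 13 genes, 9 of them within 10 kb of the TSS. They ran from the galanin receptor Galr1 (137 tags in iQNP and 58.05 in TAP) and Glra1 to Grin1, Oprm1 and Drd5. Adhesion and axon guidance genes were the nearest of 16 sites, such as Igsf21, Celsr3, Nrxn3 and L1cam, with 5 sites within 10 kb. Transcription factor genes were the nearest of 12, such as Camta1, Npas4, Lhx2 and Scrt1, with 5 within 10 kb. Cytoskeleton and transport genes were the nearest of 9, such as Crmp1, Stmn3 and Map2, with 7 within 10 kb. The symbol pattern also took in Actl6b, a subunit of the neuronal BAF chromatin remodelling complex, and Sptlc3, a sphingolipid enzyme. In the order given here, the 6 lists held 7.23, 7.23, 3.92, 4.82, 3.61 and 2.71% of the strong shared sites. Among the other shared sites they held 5.19, 5.19, 3.77, 3.07, 3.77 and 3.07%. The iQNP to TAP ratio, as the median on the log2 scale, ran from 0.74 at the cytoskeleton list to 1.21 at the receptor list. Most sites had a nearest gene outside these lists, and a nearest gene is not shown to be a regulated one, since 98 sites lay more than 100 kb from any TSS.

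MicroRNA genes were the nearest gene of 8 strong shared sites, 4 of them within 10 kb. The site 2290 bp from Mir137 had 67.8 and 51.4 tags in iQNP with the commercial and the homemade antibodies, and 31.5 and 31 in TAP. The site 5849 bp from Mir9-3 had 48.6 and 37.3 in iQNP and 26.8 and 21 in TAP. The site 531 bp from Mir124-3 had 43.3 and 31.6 in iQNP and 21 with each antibody in TAP, and that 4044 bp from Mir129-2 had 36.9 and 23.2 against 18.3 and 13.5. All 4 had more tags in each iQNP library than in either TAP library, again the usual case among shared sites (92.7%). These loci encode microRNAs known for roles in neural precursors and neurons. The mature sequences of both arms of the 3 with a RefSeq entry, with the seed (bases 2 to 8) in capitals, show that they share no seed.
miR-137-5p: aCGGGUAUucuuggguggauaa
miR-137-3p: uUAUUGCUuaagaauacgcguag
miR-9a-5p: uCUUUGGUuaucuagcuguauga
miR-9a-3p: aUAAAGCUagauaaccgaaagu
miR-129-5p: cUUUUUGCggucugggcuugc
miR-129-2-3p: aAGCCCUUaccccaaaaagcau

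The order of the sites was largely kept between the conditions. Across the 332 sites, the mean tags in iQNP and TAP had a Spearman rho of 0.77, or 0.75 for the commercial antibody alone and 0.72 for the homemade ones. Within 1 condition, the tags of both antibodies had a rho of 0.83 in iQNP and 0.89 in TAP. Points share the same 4 libraries and their depth, and the rho depends on the range: it was 0.91 among the 26 sites with over 100 tags and 0.00552 among the 66 with over 40 to 50. Of the first 50 sites in iQNP, 44 (88.0%) were among the first 50 in TAP, and of the first 100, 80. The median change of rank was 31.5 places. The sites that fell most in TAP lay near Cdk4, which moved from rank 38 to 248, LOC500990 (106 to 316), Smn1 (64 to 267), Actr3b (108 to 310) and Slc15a4 (100 to 276). The largest rises were at Cplx2, a presynaptic complexin (270 to 109), and Sez6l (279 to 119).

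**Figure D2:**
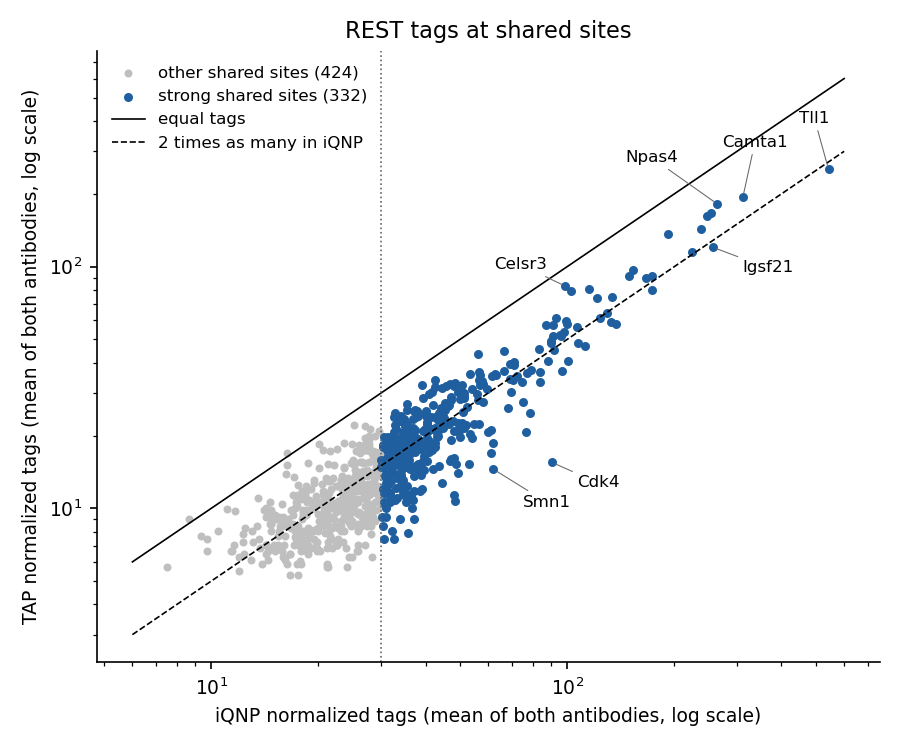
Mean normalized tags of both antibodies in iQNP (x axis) and TAP (y axis), both on log scales, for the 332 strong shared sites in blue and the 424 other shared sites in grey. The solid line marks equal tags and the dashed line 2 times as many in iQNP. All blue points lie below the solid line, and the site near Cdk4 with 90.4 tags in iQNP lies farthest below it with 15.5 in TAP.

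Every strong shared site had more tags in iQNP than in TAP with each antibody. The log2 ratio had a median of 1.12 for the commercial antibody (SD across sites 0.44, from 0.26 to 2.61) and of 0.87 for the homemade ones (SD 0.43, from 0.04 to 2.66). The mean of both antibodies had a median of 1.00, with an SD of 0.18 between the antibodies' medians (n = 2), and ranged from 0.22 to 2.56. The ratio exceeded 2-fold at 207 sites by the commercial antibody and at 126 by the homemade ones. The other shared sites had medians of 1.18 and 0.96, and 413 of 424 were higher in iQNP with both antibodies. Both iQNP libraries exceeded both TAP libraries at 312 strong shared sites (94.0%), where 92.7% of all shared sites did so.

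The members were chosen for high iQNP tags, and this can raise the ratio, so its size and direction are described and not tested. By edgeR's quasi-likelihood test on the total tags of all 756 shared sites with the depths as library sizes, 204 of 332 members (61.4%) passed with more tags in iQNP (Benjamini-Hochberg adjusted p under 0.05), where 68.4% of all shared sites did, and 0 had more in TAP (0 also at an unadjusted p under 0.05). The calls rested on both TAP libraries, so with 1 left the size of the change is given here. Without the commercial TAP library the members' median edgeR log2 change was 1.16, and without the homemade one 0.88. Over all shared sites these medians were 1.18 and 0.95. Both conditions used the same antibodies, and with the antibody as a block 324 members passed with more tags in iQNP, where 94.8% of all shared sites did. By list, the test without the block called 18 of 24 ion channel sites, 9 of 13 receptor sites, 12 of 24 vesicle and secretion sites, 13 of 16 adhesion sites, 5 of 12 transcription factor sites and 3 of 9 cytoskeleton sites, all with more tags in iQNP. The rule used this contrast, and nothing is read from these counts. The count of members also depends on the scaling: after TMM normalization, which centres the shared sites on a change of 0, 26 members had more tags in iQNP (5.03% of all shared sites did) and 24 more in TAP (5.56% of all). The median log2 change of all shared sites moved from 1.05 to 0.0033 between these scalings. With 1 library per antibody and condition, whether the common part of the ratio belongs to the cells or to the libraries cannot be told apart.

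The ratio differed between sites by more than the counting error. From the total tags, the counting error of the log2 ratio had a median of 0.23 for the commercial and 0.26 for the homemade antibodies, and 0.17 for their mean, against an SD of 0.39 across sites. Among the 68 sites with over 60 tags in iQNP the counting error was 0.12 (root mean square), and the SD across sites was 0.41. The antibodies also ranked the ratios alike, with a Spearman rho of 0.66 and a Pearson r of 0.68 over 332 sites. After the shift between the antibodies, of which the commercial antibody gave the larger ratio at 263 sites (79.2%) with a median difference of 0.26, their disagreement was about as large as counting alone gives: the SD of the difference was 0.35 and its counting error 0.35 (root mean square), and 17 of 332 sites differed by over 2 counting errors. Counting errors hold no error from the culture or the ChIP.

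**Figure D3:**
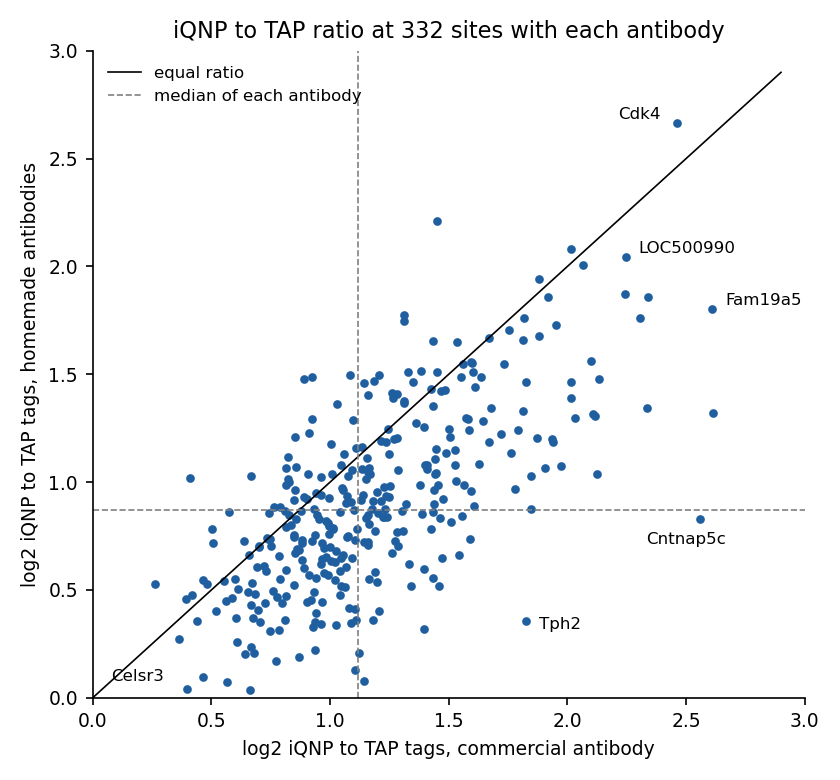
The log2 iQNP to TAP ratio of tags (normalized) with the commercial antibody (x axis) and the homemade antibodies (y axis), 1 point per strong shared site, with dashed lines at the medians of 1.12 and 0.87. The points rise together along the line of equal ratios and most lie below it, and all are above 0 on both axes.

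The highest ratio was at a site 424205 bp from Cdk4, the kinase that drives entry into the cell cycle, at chr7:66592706-66592774. It had 102.9 and 77.9 tags in iQNP with the commercial and the homemade antibodies and 18.7 and 12.3 in TAP, a log2 ratio of 2.46 and 2.66 with a counting error of 0.22 and 0.28. The other 2 sites annotated to Cdk4, 336739 and 114283 bp from its TSS, had ratios of 0.84 and 0.55, so the high ratio belonged to 1 of the 3 sites. It was followed by sites near Fam19a5 (2.21), LOC500990 (2.14), Wscd2-ps1 (2.10) and Smn1 (2.06), of which that near Smn1 had 79.1 and 45.0 tags in iQNP and 16.7 and 12.3 in TAP. The sites near Fam19a5 and Wscd2-ps1 had fewer than 10 tags in each TAP library.

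The lowest ratio was in an exon of Celsr3, an atypical cadherin of axon guidance, 1033 bp from its TSS at chr8:113883884-113883948. It had 123.8 and 73.9 tags in iQNP and 94.1 and 71.9 in TAP, a log2 ratio of 0.40 and 0.04 with counting errors of 0.12 and 0.14, so that with the homemade antibodies the conditions differed by less than the counting error. The next lowest were near Rps19bp1 (0.28) and at Trim67 (0.32), Scrt1 (0.32) and Syndig1l (0.35), and at each the homemade ratio was 0.27 or less. After TMM normalization, which shifts all sites together, Celsr3 and Scrt1 had edgeR log2 changes of -0.81 and -0.69 while the Cdk4 and Smn1 sites had 1.50 and 1.03. The median of all members was -0.038 under this scaling, so these values give a site's place relative to the others.

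The 5 sites where the antibodies gave the most different ratios had means from 8.07 to 16.9 tags in TAP, below the members' median of 20. Near Cntnap5c, of the contactin-associated family, the commercial antibody gave a ratio of 2.56 and the homemade ones 0.83, where TAP had 7.39 and 15.5 tags. At the intronic site of Tph2, which makes serotonin in neurons, it was 1.83 and 0.36, and at Dab1, an adaptor of reelin signalling, 2.61 and 1.32. Tmem200a and Calb1, a calcium buffer of neurons, followed. In all 5 the commercial ratio was the larger, and in TAP the homemade antibodies gave more tags than the commercial antibody. At 264 of 332 sites the commercial antibody gave more in TAP. Where the commercial ratio is much the larger, this order in TAP largely follows from the choice of sites, since in iQNP the commercial antibody gave more tags at 331 of 332 sites.

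Ratios differed between sites that had the same nearest gene. Of the 299 nearest genes, 25 had 2 or more strong shared sites, with 4 at Kcnk9 and 3 each at Cdk4, Igsf21, Ptp4a3, Rph3a, Sgsm1 and Slc12a5. Among the sites annotated to Kcnk9, the one with 237.6 tags, 20349 bp from the TSS, had a ratio of 0.72. The other 3, with 31.2 to 40.3 tags, lay 149025 to 614964 bp away and had ratios from 0.94 to 1.38. At 8 places neighbouring strong shared sites lay within 10 kb of each other, and at 4 of these their ratios differed by over 2 counting errors. The closest pair was at Vgf, 0.93 kb apart. Its site 2 bp before the TSS had 103.9 and 78.9 tags in iQNP and 63.0 and 51.6 in TAP, and its site in the last exon had 56.0 and 32.9 in iQNP and 15.2 and 10.3 in TAP. The log2 ratios were 0.67 and 1.78, a difference of 1.11 with a counting error of 0.23, in the same order with both antibodies. The promoter site is the one whose RE1 core is shown above. A pair in an intron of Cdh22, 1.12 kb apart, had 1.81 and 0.98, and the pair at Slc12a5, a chloride transporter gene of neurons, 0.82 before and 0.40 after the TSS. The pairs at Rph3a, Sncb and Sgsm1 differed by 0.08 or less.

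The ratio of normalized tags was lower near a TSS. Its median was 0.80 at the 60 sites within 1 kb, 0.89 at the 56 sites over 1 to 10 kb away, 1.00 at the 118 over 10 to 100 kb and 1.20 at the 98 over 100 kb. Either antibody alone gave this order, from 0.95 to 1.24 (commercial) and from 0.60 to 1.06 (homemade). It also held among the other shared sites, from 0.91 to 1.19, and among the 264 strong shared sites with up to 60 tags, from 0.80 to 1.24. More than 2-fold higher in iQNP were 28.3% of the sites within 1 kb and 67.3% of those over 100 kb away. Across sites the distance and the ratio had a Spearman rho of 0.36, and the tags were related to distance in TAP (rho -0.24) more than in iQNP (-0.07). The ranges overlapped widely, as in the second site of Vgf, and on the scale of fold over input the same 4 medians were 0.75, 0.71, 0.77 and 0.80, with a rho of 0.04. The gradient is thus seen in tags. On fold over input the ratio had an SD of 1.31 across sites, against 0.39 for tags, and rests on few input tags. Its flat medians therefore cannot decide whether a gradient of this size holds on that scale, and the part of the input was not tested.

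**Figure D4:**
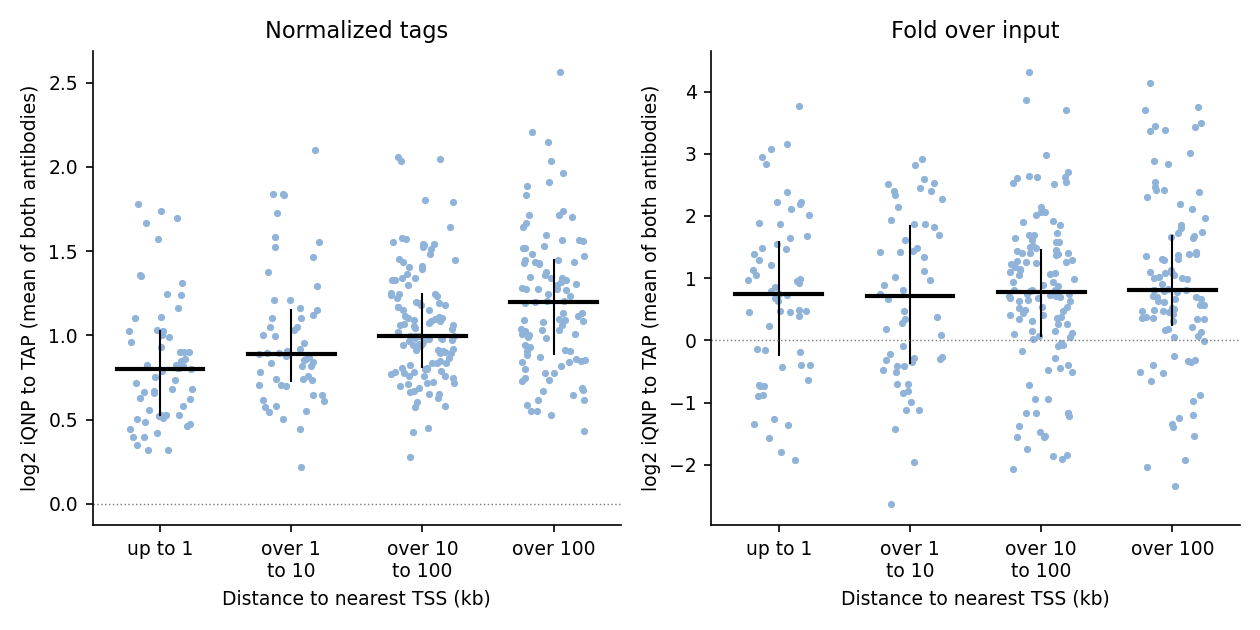
The log2 iQNP to TAP ratio of the strong shared sites (mean of both antibodies, y axis) by distance to the nearest TSS in kb (x axis), for normalized tags on the left and fold over input on the right. Each point is a site, the horizontal bar the median and the vertical line the quartiles. The medians rise from 0.80 to 1.20 on the left and stay between 0.71 and 0.80 on the right, where the points spread over a wider range.

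The scale mattered for the spread as well. Taken from fold over input, the log2 ratio had a median of 0.77, an SD of 1.31 across sites and a range from -2.63 to 4.31, and 247 of 332 sites were higher in iQNP. The iQNP and TAP fold over input had a Spearman rho of 0.29. This ratio had a rho of -0.95 with the log2 ratio of the scaled input. The fold divides the tags by that same input, so much of this relation is built in. Both antibodies are divided by the same input library of their condition, so they are not independent on this scale. The scaled input itself had a median log2 ratio of 0.39 and an SD of 1.28, on a median of 3.8 and 2.7 scaled tags per site.

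**Figure D5:**
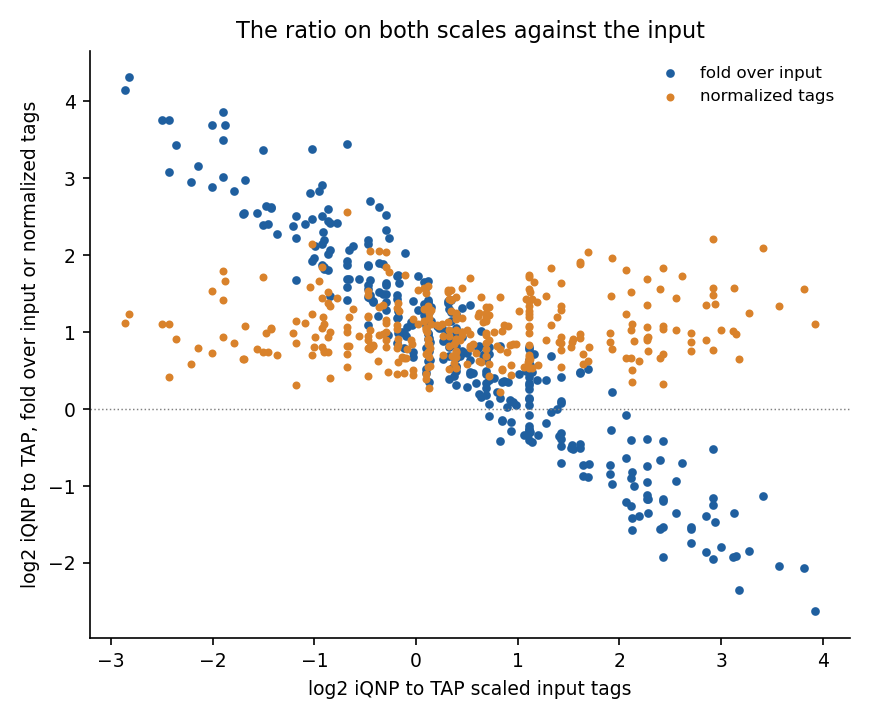
The log2 iQNP to TAP ratio of the strong shared sites (y axis, mean of both antibodies) on fold over input in blue and on normalized tags in orange, against the log2 ratio of their scaled input tags (x axis). The blue points fall steeply from left to right, with a Spearman rho of -0.95, and the orange points stay between 0.22 and 2.56. Much of the fall is built in, since fold over input is divided by the scaled input.

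Annotated repeats held 17 of the strong shared sites (5.12%), against 4.48% of the other shared sites and 7.27% of all iQNP sites. They were 12 LTR elements, 4 LINEs and 1 DNA transposon, and 5 of them were copies of the LTR RMER21A, near RGD1560691, Ccnc, Smn1, LOC685046 and Cyld. The RMER21A copies had log2 ratios from 0.98 to 2.06, with a median of 1.57, and the 17 sites a median of 1.33, with 1.53 for the commercial and 1.20 for the homemade antibodies. The sites outside repeats had a median of 0.98. The sites in repeats lay a median of 209653 bp from a TSS, against 24680 bp for those outside, and among the other shared sites the median ratio was 1.12 in repeats and 1.14 at intergenic sites. The part of the distance in the higher ratio was not tested. Of the 5 sites with the highest ratios, 2 lay in repeats, near LOC500990 and Smn1.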

How the data were processed

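REST ChIP-seq libraries of rat HCN cells were analysed, with 2 antibody libraries and 1 input library for each of iQNP and TAP. Reads were aligned by the authors with Bowtie2 to rat rn4, and peaks were called with HOMER against input and merged within 50 bp. Per the file headers, the deposited tables give total tags as counts, normalized and scaled input tags as a signal, fold over input as a ratio with its p-value from the authors' peak caller, and a focus ratio as a fraction. Header numbers 1 and 2 were read as the labels' antibody 1 (commercial) and antibody 2 (homemade). Annotation came from the authors' supplementary tables, and 3 names missing or altered there were looked up by RefSeq accession in the GRCr8 gene table. Depths were the median of total over normalized tags. Log2 ratios were taken per antibody and averaged.

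Counts were tested with edgeR 4.0.16 (R 4.3.3) on all 756 shared sites, with condition as the term, depths as library sizes and no filter. The code was also run on simulated counts without an antibody effect and with only part of the sites raised. That setting is unlike these data, so the run does not bear on the error of the calls here. Correlations were computed with scipy 1.17.1. Counting errors are Poisson errors of total tags. The members and the gene lists were chosen with earlier results of these data known. Named genes were the 10 sites with the most tags, the 5 highest and lowest ratios, 3 sites on each side of the limit, 10 sites within 1 kb of a TSS, the 5 largest rank and antibody differences, genes with 2 or more sites, up to 4 per list and the 3 highest inputs. Promoters, microRNA sites, repeats, neighbouring pairs, risers in rank and some list members were chosen after their values were seen. Alternatives were other limits and distances, other scalings, DESeq2 1.42.0, an antibody block, either antibody alone and each library left out.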

Additional observations from a re-analysis of the deposited data

How the results depend on the processing

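The number of strong shared sites kept within 1.5 times of 332 under the other distances and peak limits, and a limit of 40 tags left 164. With the homemade or the commercial antibody alone over 30 tags it was 223 or 436. The median log2 ratio was 0.77 on fold over input and -0.039 after TMM scaling, which centres all shared sites near 0. It lay between 0.87 and 1.12 with either antibody alone. When the shared sites were chosen on TAP tags in place of iQNP tags (332 sites, 273 of them members) it was 0.85. When the members were chosen on one antibody and the ratio taken from the other, it was 0.88 and 1.09. The SD of the ratio was 1.31 on fold over input, 0.33 for the sites chosen on TAP tags, 0.39 with a limit of 40 tags, between 0.43 and 0.44 with either antibody alone, and 0.44 and 0.42 when one antibody chose the sites and the other gave the ratio. The Spearman rho between the conditions was 0.29 on fold over input, 0.84 over all shared sites, 0.76 without the 5 sites with the most tags, and between 0.72 and 0.75 with either antibody alone.

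The count of 204 members with more tags in iQNP moved most. It was 26 (7.83%, against 5.03% of all shared sites) after TMM normalization and 242 (72.9% against 67.9%) with DESeq2 and the depths. DESeq2 with its own size factors gave an adjusted p to 448 shared sites, 327 of them members. There it was 3 of 327 (0.917%, against 0.67% of the 448), and 3 members had more tags in TAP, the only such calls among the 448. With the antibody as a replicate block it was 324 (97.6% against 94.8%), where the number stands for the antibody. The deviations of the 2 pairs had a correlation of 0.0445 over all shared sites and 0.18 over the strong ones, and with 2 pairs no pairing beyond the shared reagent is claimed. Leaving out 1 library gave between 0 and 313 calls. It was 159 (47.9% against 54.4%) without the commercial and 313 (94.3% against 94.7%) without the homemade library of iQNP. The members' median log2 change was then 0.73 and 1.24, against 0.79 and 1.26 over all shared sites. Without either TAP library it was 0 by edgeR, for members and for all shared sites, where the lone TAP library was assumed to vary like iQNP. With 1 library left in a condition, nothing is read from these counts. A minimum of 20 tags in every library left 195 calls among 324 members (60.2% against 65.9%). Both TMM and DESeq2's size factors centre the shared sites by construction. The cause of the other moves was not tested.

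The sequencing depth limits single ratios to a counting error of up to 0.40 on the log2 scale. A site under the calling limit in TAP could not be a member, so high ratios can be missed, most of all at sites with few iQNP tags.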
